A study of Mus musculus with 4 samples.

Results

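The Myc and Pvt1 locus was examined here as every 5-hydroxymethylcytosine (5hmC) peak on mouse chromosome 15 whose start lay between 61500001 and 63500000 (GRCm38), together with every peak that the authors had assigned to Myc or Pvt1, all of which fell inside the same 2 Mb. The day 0 list gave 5 such peaks of 1050, and the day 20 list gave 77 of 56695. The locus was chosen from these same 2 lists, by peak position and by the authors' gene symbols and with earlier results known, so its peak numbers are a description and carry no test.

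The cells were ATDC5, a mouse chondrogenic line of chondroprogenitors that was taken towards chondrocytes by adding insulin, transferrin and selenite. The medium held fetal bovine serum, glutamine, antibiotics and ascorbic acid at both stages. There were 4 libraries of genomic DNA captured for 5hmC. Chondroprogenitors (day 0) gave 2, and chondrocytes gave 1 labelled day 19 and 1 labelled day 20. Each deposited list came from merged samples of 1 stage, and whether the day 19 library entered the day 20 list is not given. The lists held positions and gene symbols without height, enrichment or p-value, so no spread between replicates could be measured and the depth is unknown. The lists differed in kind as well as in length, with a median peak width of 134 bp at day 0 and 591 bp at day 20, so a change in peak number between them cannot be read as a change in the amount of 5hmC. A single cell line cultured in the laboratory stands in for cartilage here.

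5hmC is made from 5-methylcytosine by the TET dioxygenases and is often found over gene bodies and distal regulatory elements. Myc encodes a transcription factor that pairs with MAX, binds E-box sequences and drives growth and proliferation. Pvt1 is the long noncoding RNA (lncRNA) gene that follows Myc in the same direction, a frequent site of chromosomal rearrangement and viral insertion in tumours. The wide stretch beyond it is poor in protein-coding genes and is known in other tissues for enhancers that act on Myc over long distances.

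At Myc itself the day 0 list had more peaks than the day 20 list, opposite to the rest of the locus. Myc, a gene of 5.02 kb (61985341 to 61990361), held 2 day 0 peaks and 1 day 20 peak. The first day 0 peak ran from 61987425 to 61988347, 923 bp, and the second from 61989264 to 61989986, 723 bp, with 916 bp between them. The single day 20 peak ran from 61989088 to 61989986, 899 bp, so it contained the second day 0 peak whole and stopped at the same base. The first day 0 peak was found at day 0 only, and the nearest day 20 peak was that same one, 740 bp away. Day 0 peaks covered 32.8% of the gene and the day 20 peak 17.9%.

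A peak in Myc at day 20 is a common state, since 40.5% of the 21900 protein-coding genes had at least 1 in the gene body. In the day 0 list 1.76% had at least 1 and 0.215% had 2 or more, that is 47 genes, of which 5 were shorter than 10 kb: Myc, Eef2, LOC100504180 and the mitochondrial genes COX1 and ND5. Among the 336 protein-coding genes with a peak in both lists, day 0 peaks covered more bases than day 20 peaks in 8. Of these, 4 were mitochondrial (ND1, ND2, ND4 and ND5), and Gm38510, C130026I21Rik and 4930467E23Rik had all their day 0 peaks in 100 kb tiles with 3 or more of them. Myc was the eighth, with 1646 bp at day 0 against 899 bp at day 20, and neither of its day 0 peaks lay in such a tile. The Myc tile, from 61900001 to 62000000, held 2 day 0 peaks. A further one, at 62067278 in Pvt1, began 81937 bp above the start of Myc, in the next tile. Whether the Myc peaks fall in a tile with 3 or more thus depends on where the tile boundaries lie.

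Both day 0 peaks at Myc were wide for their list. By width they ranked 15 and 18 of 1050, at 6.89 and 5.40 times the list's median. Of the 18 widest day 0 peaks, 5 were mitochondrial and 9 lay in nuclear tiles with 3 or more day 0 peaks, among them 4 in Sfi1 and 2 in Rn45s, the repeated gene of the ribosomal RNA precursor. The remaining 4 were the Myc peaks and an adjacent pair on chromosome 14 (19415698 to 19417272 and 19417342 to 19419702). Of the 818 day 0 peaks outside the mitochondrial chromosome and such tiles, the Myc peaks were therefore the third and the fourth widest. The next, in Mdga2, spanned 537 bp. The place of the Myc peaks among these 818 depends on where the tile boundaries lie. Width measures how far a peak was called and is not an amount of 5hmC, and the copy number of the Myc sequence in these cells was not tested.

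**Figure D1:**
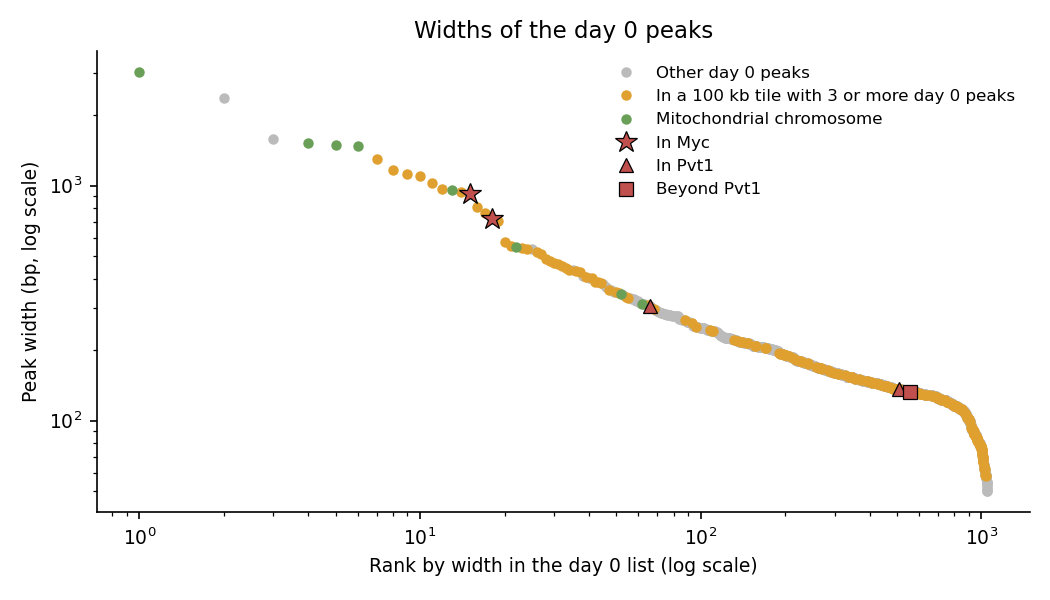
Width in bp of each of the 1050 day 0 peaks against its rank by width, both on log scales, coloured by whether the peak lies on the mitochondrial chromosome, in a 100 kb tile with 3 or more day 0 peaks, or elsewhere. The 2 Myc peaks (stars, 923 and 723 bp) stand among the widest of the list, the wider Pvt1 peak (308 bp) ranks 66, and the other 2 peaks of the locus (136 and 133 bp) lie near the median of 134 bp.

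The agreement of the lists at the second Myc peak was close. Of 521 overlapping pairs of a day 0 and a day 20 peak in the whole series, 2 ended at the same base, and the Myc pair was 1 of them. The day 20 peak there was 1.24 times as wide as the day 0 peak, against a median of 4.71 times over all pairs, and 11 pairs had a smaller ratio. The day 0 peak covered 80.4% of the day 20 peak, against a median of 21.2%.

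The start of Myc, where its promoter lies, had no peak in either list. The nearest day 0 peak began 2.08 kb into the gene, and the nearest day 20 peaks lay 3.75 kb into it and 10.7 kb below it. At day 0 no peak was found for 1193 kb below the gene, in a list with 0.0395 peaks per 100 kb over all autosomes. The start of Pvt1 had none either. The day 20 peaks next to it ended 4.46 kb below and began 5.42 kb above, and the nearest day 0 peak above began 29.3 kb inside the gene. Over 32851 promoter windows of RefSeq (GRCm38.p6), which span 300 bases mostly before a gene start, 4.70% overlapped a day 20 peak and 0.0457% a day 0 peak. A start without a peak was thus the usual state in both lists.

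Pvt1 carried the widest day 20 peaks of the locus, at a higher density than the rest of the locus together. Its gene body of 222 kb (62037986 to 62260215) held 16 day 20 peaks, 7.20 per 100 kb with an exact Poisson 95% interval of 4.12 to 11.7. The other 1778 kb of the window held 61, or 3.43 per 100 kb (2.62 to 4.41), so the density in Pvt1 was 2.10 times as high. Such intervals cover counting error over peaks only. The short interval between Myc and Pvt1 stood at 8.40 per 100 kb (2.29 to 21.5) on 4 peaks, so its density could not be told from that of Pvt1. By bases covered the contrast was 3.68 times, with 6.07% of Pvt1 and 1.65% of the rest inside a peak.

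The widths in Pvt1 ranged from 343 to 1692 bp with a median of 681 bp, against 258 to 899 bp with a median of 440 bp in the rest of the locus. All 5 day 20 peaks of the locus that reached 1 kb lay in Pvt1, where they were 5 of 16. They ran from 62043405 to 62045096 (1692 bp), from 62067850 to 62069223 (1374 bp), from 62075606 to 62076621 (1016 bp), from 62127237 to 62128337 (1101 bp) and from 62136512 to 62138186 (1675 bp). All 5 were on the side of Pvt1 nearer to Myc, between 58.1 and 151 kb from the start of Myc. The widest was also the first peak inside the gene, and in the whole list 1.64% of peaks were at least as wide. In that list 12.4% of peaks reached 1 kb. At or above the list's median of 591 bp stood 11 of the 16 peaks in Pvt1 and 9 of the 61 others.

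Neighbouring midpoints in Pvt1 were a median of 9.56 kb apart, against 17.2 kb beyond the gene and 25.6 kb below Myc. The 4 peaks between Myc and Pvt1 stood closer still, with a median of 2.53 kb over 3 intervals. The widest interval inside Pvt1, 51.7 kb, separated the peaks at 62075606 and 62127237. The peaks from 62067154 to 62067838 and from 62067850 to 62069223 almost touched, and with peaks closer than 1 kb merged Pvt1 held 15.

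**Figure D2:**
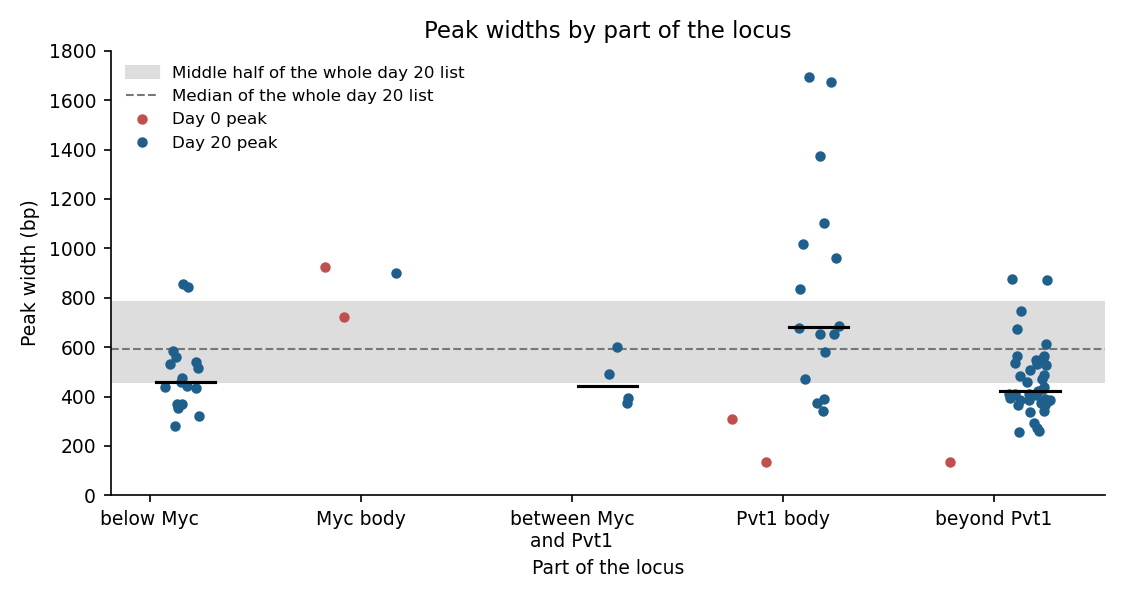
Width in bp of each peak by part of the locus, with day 0 and day 20 side by side, black bars for the median where there are more than 2 peaks, and the grey band and dashed line for the middle 50 percent and the median of the whole day 20 list. The 5 peaks above 1 kb are all in the Pvt1 column, and the medians below Myc (458 bp) and beyond Pvt1 (423 bp) lie under the list's 591 bp.

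At day 0 Pvt1 held 2 peaks. The first ran from 62067278 to 62067585, 308 bp, inside the day 20 peak that starts at 62067154, and made up 45% of its width. The second ran from 62151840 to 62151975, 136 bp, and was found at day 0 only, 703 bp beyond the day 20 peak that ends at 62151136. Both stage-specific day 0 peaks of the locus, this one and the first of Myc, were thus within 1 kb of a day 20 peak, as were 73 of the 530 day 0 peaks without overlap in the whole series (13.8%).

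Among lncRNA genes of 0.5 to 2 times the length of Pvt1, 226 with Pvt1, 57.5% had a day 20 peak in the body and 7.96% a day 0 peak. Pvt1 had both, and its 2 day 0 peaks were matched by no other of these genes. By day 20 peaks per 100 kb it ranked 18 of the 226, whose other members had a median of 0.698, and by share of the body covered it ranked 13. Above it by density were, among others, Airn, an imprinted antisense transcript with 10.1 per 100 kb, and 2610035D17Rik, beyond Sox9, with 10.8. Among all 2082 genes of that length range, protein-coding ones included, Pvt1 ranked 296, with 14.2% of them higher, so many genes of like length carried peaks as densely. The 5 nearest to it by density in the day 20 list alone were Aopep (7.20 per 100 kb), Stab2 (7.19), Mthfd1l (7.21), Fryl (7.19) and the collagen gene Col5a1 (7.18). All 5 were protein-coding, and of these only Stab2 had a day 0 peak, 1 shared with day 20.

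The authors' symbols gave Pvt1 18 day 20 peaks, 2 more than its gene body held. The additional 2, from 62032302 to 62032901 and from 62033040 to 62033530, lay 5.09 and 4.46 kb below the gene start, between Myc and Pvt1. That interval of 47.6 kb held 4 day 20 peaks in all, of 374 to 600 bp, and no day 0 peak. Macroh2a3, a transcribed pseudogene of a histone variant that lies inside Pvt1, had no peak in its 1.91 kb.

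**Figure D3:**
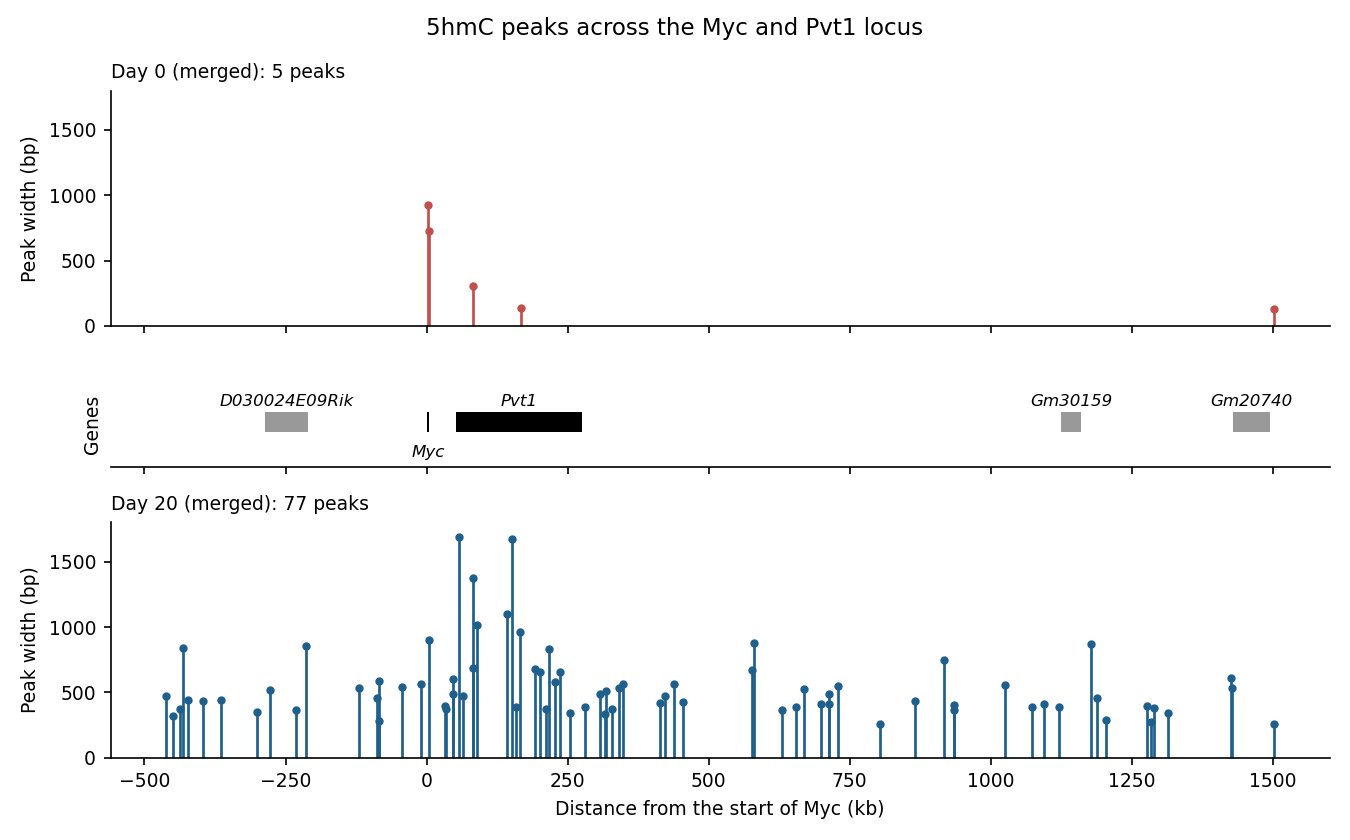
Peaks of the locus by distance in kb from the start of Myc, with the height of each line giving the peak's width in bp, day 0 above, day 20 below, and the bodies of Myc, Pvt1 and 3 further lncRNA genes between them. The 5 day 0 peaks stand at Myc, in Pvt1 and at 1503 kb, while the 77 day 20 peaks run over the whole window and are widest in Pvt1.

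The desert beyond Pvt1 held 50.6% of the locus's day 20 peaks in 62.0% of the locus's length, more thinly than Pvt1 and as narrow ones. In its 1240 kb up to the end of the window lay 39 day 20 peaks, 3.15 per 100 kb (2.24 to 4.30), with widths of 258 to 876 bp and a median of 423 bp. The stretch of 485 kb below Myc was alike, with 17 day 20 peaks, 3.50 per 100 kb (2.04 to 5.61), and a median width of 458 bp. Both densities stood above the 2.30 per 100 kb of all autosomes, where the median width was 592 bp. Taken alone, the interval of each contained that autosomal density. All of the window outside Pvt1 together stood at 3.43 per 100 kb (2.62 to 4.41), an interval that lay above it. These intervals cover counting error over peaks only and are no test. Because the desert's peaks were narrow, its covered share, 1.46%, was close to that of the autosomes, 1.55%.

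A single day 0 peak lay in the desert, from 63488048 to 63488180 (133 bp), 1503 kb above the start of Myc. It was shared with the day 20 peak from 63488027 to 63488284, at 258 bp the narrowest of the 77. Below Myc no day 0 peak was found. Of the 5 day 0 peaks of the locus, 3 were shared with day 20 (60%, Wilson 95% interval 23.1 to 88.2%), 1 each in Myc, in Pvt1 and in the desert. In the whole day 0 list 49.5% were shared (46.5 to 52.5%), which lies within the interval of the locus. Of the 77 day 20 peaks, 3 were shared with day 0 (3.90%, 1.33 to 10.8%), against 0.841% (0.769 to 0.920%) of the whole list.

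By 100 kb tile, 19 of the 20 tiles of the locus held a day 20 peak, against 56.0% of 24390 autosomal tiles, and 4 held a day 0 peak, against 3.20%. The richest tile, from 62000001 to 62100000 over the start of Pvt1, held 9 day 20 peaks, a number that 4.37% of autosomal tiles reached. The next, over the body of Pvt1, held 7. The tile from 63300001 to 63400000 had none. The longest stretches without a day 20 peak were both in the desert, 123 kb from 62439625 to 62562352 and 111 kb from 63299810 to 63411001. The autosomal median was 1 peak per tile, and 18 tiles of the locus were above it.

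**Figure D4:**
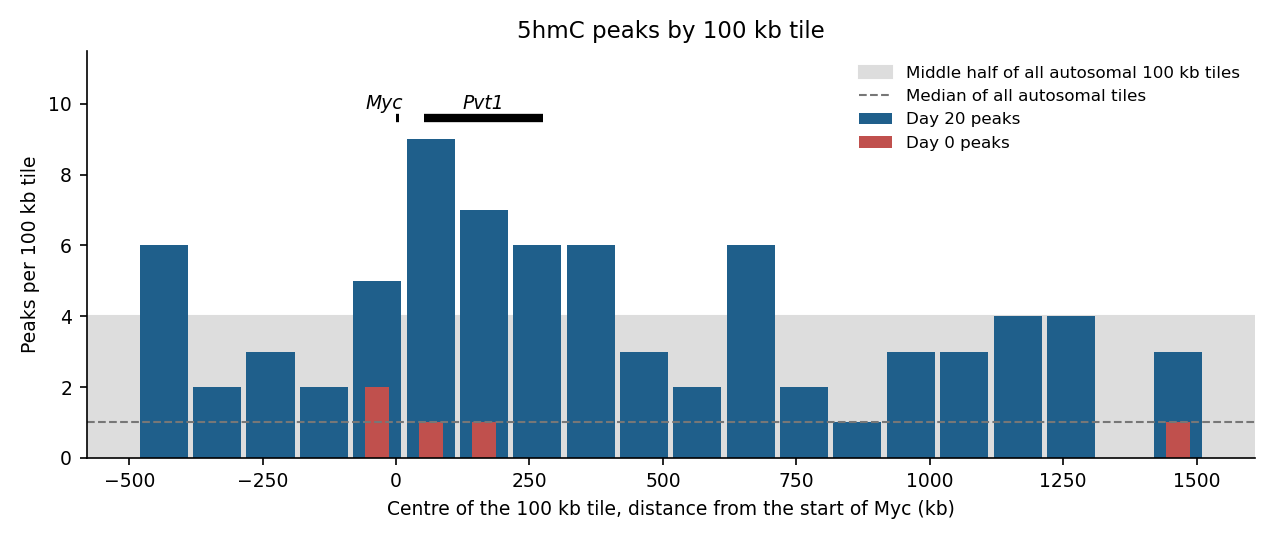
Day 20 peaks (wide bars) and day 0 peaks (narrow bars) in each of the 20 tiles of 100 kb, by distance in kb from the start of Myc, with the bodies of Myc and Pvt1 as black bars, the dashed line at the autosomal median of 1 and the grey band from 0 to 4 for the middle 50 percent of autosomal tiles. The day 20 count is highest at the start of Pvt1 (9) and 0 in 1 tile of the desert.

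Most of the locus's day 20 peaks lay outside genes. Of the 77 day 20 peaks, 1 overlapped a protein-coding gene, Myc, and 19 more overlapped a noncoding gene, 16 in Pvt1 and 3 in D030024E09Rik. The other 57 (74.0%) overlapped no gene of the RefSeq table, against 35.3% of the whole day 20 list. The window is poor in genes, with 1 protein-coding gene against a median of 12 over autosomal windows of its length. The share of its sequence inside genes was not measured, so a lack of peaks in genes cannot be read from these shares. The authors' annotation left 54 of the 77 without a symbol.

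Of the 16 genes of any type in the window, 13 had no peak in either list. D030024E09Rik, an lncRNA gene of 75.2 kb below Myc (61699284 to 61774451), held 3 day 20 peaks of 369 to 857 bp, or 3.99 per 100 kb, and no day 0 peak. Over all 12727 lncRNA genes 33.7% had a day 20 peak in the body. Gm20740, of 65.2 kb near the far end (63414397 to 63479608), held none, and the peak that the authors assigned to it under the name LOC432958 lay 1.37 kb outside its body. The lncRNA genes Gm41333, Gm30113, Gm41334, Gm30159 and Gm41335 had none, nor had the small RNA genes Gm22521 and Gm25702 and the pseudogenes Gm18154, Gm18788, Tsg101-ps and Gm4942.

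Promoter windows of 300 bases were found in the RefSeq table for 7 of the 16 genes, all lncRNA genes, and not for Myc or Pvt1. None of the 7 overlapped a peak. Since TET enzymes act on methylated cytosine, which in most mammalian cells stands before guanine, the sequences are shown for the lncRNA genes other than Pvt1 that the authors gave a day 20 peak, with the dinucleotide CG in capitals, which reads the same on both strands. Both lie on the minus strand of GRCm38.p6 and are printed 5′ to 3′, D030024E09Rik at chr15:61774402-61774701 and Gm20740 at chr15:63479559-63479858.
D030024E09Rik: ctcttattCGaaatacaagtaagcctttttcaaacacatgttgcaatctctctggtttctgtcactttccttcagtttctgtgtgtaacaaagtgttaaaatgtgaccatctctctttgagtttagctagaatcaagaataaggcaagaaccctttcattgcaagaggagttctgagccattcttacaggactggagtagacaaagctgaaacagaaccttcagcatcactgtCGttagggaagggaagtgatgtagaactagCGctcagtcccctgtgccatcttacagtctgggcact
Gm20740: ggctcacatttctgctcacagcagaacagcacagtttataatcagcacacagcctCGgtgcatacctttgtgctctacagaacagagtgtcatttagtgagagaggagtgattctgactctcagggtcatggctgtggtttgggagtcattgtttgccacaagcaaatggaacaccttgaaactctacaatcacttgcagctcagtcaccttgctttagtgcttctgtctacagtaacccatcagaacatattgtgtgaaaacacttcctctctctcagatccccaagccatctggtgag
They held 3 and 1 CG. The 7 windows held 0 to 3, and of all promoter windows 31.4% held 3 or fewer and 94.6% held at least 1. The nearest day 20 peaks lay 3.01 kb from the window of D030024E09Rik and 8.17 kb from that of Gm20740.

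The number of day 20 peaks in the window was set beside that in other autosomal windows of the same length. The locus had 3.85 per 100 kb (3.04 to 4.81), 1.63 times the density of the rest of chromosome 15 (2.36), and ranked 278 of 1201 windows, with 23.1% of them higher. Most of the windows hold far more genes than this one, with a median of 12 protein-coding genes. Among the 111 windows with at most 1 protein-coding gene, a set defined after the data were seen, the locus came first with 77, and 71 of the 111 had no day 20 peak. By bases covered it came second, with 42762 bp against 48168 bp in the window of Auts2. The next by number held 63, of which 60 overlapped its protein-coding gene Auts2, and the one after held 49, of which 7 overlapped Adgrl2. Gaps in the assembly and unmappable sequence could not be told apart from sequence without 5hmC in such windows.

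**Figure D5:**
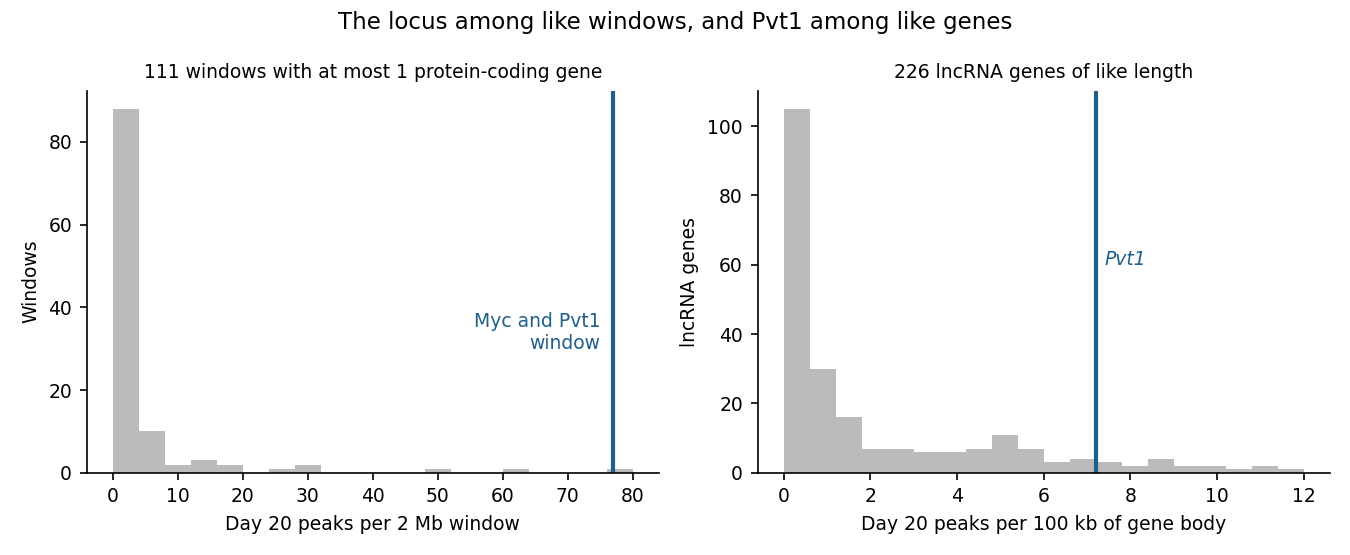
Left, day 20 peaks per 2 Mb window in the 111 autosomal windows with at most 1 protein-coding gene; right, day 20 peaks per 100 kb of gene body in the 226 lncRNA genes of 0.5 to 2 times the length of Pvt1, with vertical lines for the Myc and Pvt1 window (77 peaks) and for Pvt1 (7.20). Most windows and genes lie at or near 0, the window has the highest count of its set and Pvt1 ranks 18 in its own.

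The flanks of Sox9, the master regulator of chondrogenesis, are the best known regulatory desert of cartilage. A window of the same length, with Sox9 at the place of Myc, held 153 day 20 peaks, 7.65 per 100 kb, with a median width of 793 bp, and 32.7% of them reached 1 kb. In the Myc and Pvt1 locus the corresponding values were 77 peaks, 3.85 per 100 kb, 473 bp and 6.49%. Its density was thus 0.503 times and its covered share 0.312 times that around Sox9. The Sox9 window contains 9 protein-coding genes and the Myc window 1. Of the 153 day 20 peaks around Sox9, 64 overlapped a protein-coding gene, against 1 of the 77 in the Myc and Pvt1 locus. Day 20 peaks that overlapped no gene were closer in number, 62 around Sox9 and 57 in the locus. With Sox9 at the place of Myc, its window also reached less far below the gene than above it. The totals therefore do not compare desert with desert. In both windows the day 0 list had 5 peaks. There was 1 merged list per stage, so this difference between loci carries no test.

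Within 500 kb on either side of Myc lay 48 day 20 peaks, 17 below and 31 above, and 17.4% of protein-coding genes had more. Within 100 kb there were 14, and 5.18% had more, while within 1 Mb there were 71, and 35.2% had more. The surroundings of Myc thus stood out less the farther they were taken. The 5 protein-coding genes nearest to Myc in this count and of like length, Gm39773, Tmem121b, Gm39774, Tmem199 and Vegfb, also had 48. Vegfb held 1 day 20 peak in its body and the others none, and none of the 5 had a day 0 peak. Over all protein-coding genes 40.5% had a day 20 peak and 1.76% a day 0 peak in the body, so a gene without a day 0 peak was the usual case. Gm39773 and Gm39774 lie close together on chromosome 2 (starts at 26731720 and 26782155), so their flanks largely coincide.

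The genes that work with Myc were covered unevenly. In the MAX network, the family of proteins that pair with MAX or its relative MLX, 8 of 13 members, Myc included, had a day 20 peak, against 40.5% of all protein-coding genes, and the median number was 1. The highest were Mlxip with 9, Mxi1, which encodes an antagonist of MYC, with 7 and Mlxipl, a glucose-responsive factor, with 4. Myc was the only member of the network with a day 0 peak, and its paralogs Mycn and Mycl had no peak in either list.

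Of 18 genes of MYC cofactors and turnover, 10 (55.6%) had a day 20 peak in the body, against 40.5% of all protein-coding genes. They were led by the chromatin remodelling subunit Bptf with 10, the ubiquitin ligase component Fbxw7, which marks MYC for degradation, with 7 and Bin1 with 5. Among 18 classical MYC targets 7 had one, close to the share over all protein-coding genes, and the highest were the translation initiation factor gene Eif4e with 4 and Ndrg1 with 2. With peaks up to 5 kb outside the gene counted too, 15 of the 18 had one, against 50.8% of all protein-coding genes under the same margin. Of 12 genes known to act on Myc transcription, 11 (91.7%) had a day 20 peak in the body, against the same 40.5%. There were 18 in Tcf7l2 and 17 in Tcf7l1, factors of the WNT pathway, and 13 in Smad3, of the TGF-beta pathway. E2f1 was the exception, with 2 peaks within 5 kb of its body and 1 by the authors' symbols. Several of these are long genes, and gene length was not matched. Apart from Myc, no gene of the 4 lists had a day 0 peak in its body. Tcf7l2 had 1 within 5 kb of its body, and the authors' symbols also gave it 1. At day 20 the authors' symbols gave Tcf7l2 40 peaks, against the 18 in its body. With 1.76% of all protein-coding genes having a day 0 peak in the body, lists of this length could hold few.

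Of the 61 genes in these lists, 52 had at least 1 promoter window in RefSeq, with 71 windows in all. In each of Lef1, Ldha and Eif4e, 1 window overlapped a day 20 peak. These were 3 of 71 windows (4.23%), close to the 4.70% of all promoter windows. In Lef1 and Ldha the overlapped window lay inside the gene body, not at its start. It began at 131112541 in Lef1, whose body begins at 131110297, and at 46846832 in Ldha, whose body begins at 46842274. In Eif4e, which encodes the cap-binding protein, the whole window on the plus strand of GRCm38.p6 at chr3:138525941-138526240 lay inside the day 20 peak from 138525479 to 138526372. It is shown with CG in capitals as the only one of the 3 wholly inside a peak.
Eif4e: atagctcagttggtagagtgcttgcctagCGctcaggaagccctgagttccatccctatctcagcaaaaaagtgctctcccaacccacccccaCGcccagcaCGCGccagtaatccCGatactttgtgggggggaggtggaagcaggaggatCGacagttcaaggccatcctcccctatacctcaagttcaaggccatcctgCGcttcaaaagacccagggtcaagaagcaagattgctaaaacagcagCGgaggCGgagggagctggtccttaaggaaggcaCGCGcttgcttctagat
It held 11 CG, against a median of 23 over the 71 windows of these lists, of 7 over all promoter windows and a range of 0 to 3 in the 7 windows of the Myc and Pvt1 locus.

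At the edges of the window, the first day 20 peak inside began at 61523134 and the last outside at 61449277, and at the high end the last inside began at 63488027 and the first outside at 63532096. The day 0 list had its next peaks at 60791812 below and at 63604378 above.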

How the data were processed

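Genomic DNA enriched for 5hmC was sequenced in 4 libraries, 2 at each stage. The authors deposited 1 peak list per stage with start and end positions in base pairs. Per the file headers, samples were merged and peaks had to be enriched 10-fold. The sources used here do not give what that is relative to, or whether the day 19 library entered the day 20 list. The submitters' processing notes name FastQC, cutadapt, BWA and MACS 1.4.2 and, as builds, GRCm38 and mm10. Read depth is unknown, so no precision per peak can be given, and 3 day 20 entries without a readable end were left out.

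Positions were treated as starting from 1, and width is end minus start plus 1. Gene bounds came from RefSeq (GRCm38.p6, 49980 placed genes, 21900 protein-coding), without strand or exons. A gene carried a peak at an overlap of at least 1 bp, and peaks were put into parts of the locus, tiles and windows by midpoint. Tiles and windows lay between the first and the last gene of each autosome. Shares have Wilson and densities exact Poisson 95% intervals. No p-value was computed, since each stage is 1 merged list.

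Named genes were Myc, Pvt1, all genes in the window and listed neighbours, the 5 most like Pvt1 in density and Myc in flank count, and the highest of 4 MYC lists (up to 3 each; for the targets 2, since ranks below were tied). Others were named after their values were seen. Members and lists were chosen with earlier results of these data known. The overlap steps were tested on simulated data. Alternatives covered overlap, merging, width, gene bounds, symbols and comparison sets. Python 3.11.15, numpy 2.4.6, pandas 2.3.3, scipy 1.17.1 and matplotlib 3.10.9 were used.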

Additional observations from a re-analysis of the deposited data

How the results depend on the processing

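Of 40 alternatives over 17 results, 28 left the value within 1.5 times (counts and width ratios) or its 95% interval (shares and density ratios) and 12 moved it. None turned a direction. The 77 day 20 peaks of the locus fell to 20 with only peaks at or above the list's median width. The density of Pvt1 relative to the rest of the locus rose from 2.10 to 3.68 times by covered bases. With peaks within 1 kb counted as shared, 5 in place of 3 day 0 peaks were shared. The share of windows above the locus was 23.1%, 29.5% by covered bases and, among windows with at most 1 protein-coding gene, 0% by number and 0.901% by covered bases. The share of genes above Pvt1 was 14.2%, and 6.77% among noncoding genes alone. The share above Myc by flank count was 17.4%, 5.18% at 100 kb and 35.2% at 1 Mb. MYC targets with a day 20 peak rose from 7 to 15 with 5 kb margins, which also raised the share over all protein-coding genes from 40.5% to 50.8%. The Myc day 0 peaks ranked 3 and 4 by width, in place of 15 and 18, outside the mitochondrial chromosome and tiles with 3 or more day 0 peaks. The alternatives on windows with few genes, on widths and on density in Pvt1 were chosen after seeing the data. No replicate could be left out. No paired analysis was possible because each deposited list came from merged samples. Read depth is unknown, so the absence of a peak is no measure of absent 5hmC.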

Other observations

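The protein-coding genes on either side of the desert differed widely in their day 20 peaks. Below the locus, Nsmce2, a SUMO ligase of DNA repair, held 15 in 227 kb (6.59 per 100 kb), while Trib1, a pseudokinase, and Sqle, an enzyme of cholesterol synthesis, held 1 each and Lratd2, the nearest of these to Myc, held none. Above it, Asap1, a regulator of small GTPases, held 27 in 296 kb (9.12 per 100 kb) and Cyrib, a regulator of actin, 8 in 132 kb (6.08 per 100 kb). Adcy8, an adenylate cyclase of 223 kb and so nearly as long as Pvt1, held 2 (0.896 per 100 kb). Gsdmc, Gsdmc2, Gsdmc3 and Gsdmc4, similar copies of a gasdermin gene in which reads may be hard to place, held none. No gene of these 11 had a day 0 peak, a state shared by most protein-coding genes.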
